A study of Mus musculus with 8 samples.

Results

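The NRF2 antioxidant genes described here were 10 of the 32285 genes counted in CD45+ immune cells of mouse mammary tumors: Gclm, Gclc, Slc7a11, Gsr, Hmox1, Txnrd1, Srxn1, Prdx1, Nqo1 and Nfe2l2. They were chosen by symbol, with earlier results of these data known, and their UMI counts (unique molecular identifiers, 1 per captured transcript) were followed in cell classes selected on UMIs of C1qa and of lineage markers. Single cells were profiled by 10x Chromium 3' sequencing from tumors that had grown for 18 days in the inguinal mammary fat pad of female C57BL/6 mice. 2 mice carried parental E0771, a mouse mammary carcinoma line, 3 carried E0771-Res1 and 3 carried E0771-Res2. Both Res lines had been derived from E0771 tumors that relapsed after paclitaxel given together with an antibody to PD-1, each line being a single derivation, and the labels give no treatment for the mice that carried them. The mice are named by line and replicate, the parental ones being replicates 1 and 3. 1 more parental mouse of the study was not analysed here.

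NRF2, encoded by Nfe2l2, is a transcription factor that KEAP1 and the ubiquitin ligase CUL3 mark for degradation in unstressed cells. Electrophiles and oxidants modify KEAP1, NRF2 then accumulates, pairs with a small MAF protein and binds antioxidant response elements of genes for glutathione synthesis, thioredoxin recycling and quinone reduction. Because this control acts mainly on the protein, the transcript level of Nfe2l2 need not follow that of its targets. In macrophages Hmox1 is also regulated by the heme-sensing repressor BACH1, and Slc7a11 by ATF4.

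The filters kept 10605 of 11430 cells (500 to 6000 detected genes, mitochondrial share under 10%), and no barcode was shared between mice. Markers divided them into 8813 myeloid cells, 649 lymphoid cells and 1143 cells in neither class, which included those with markers of both lineages. Myeloid cells were cut on C1qa into 2375 C1qa-high cells (10 or more UMIs, 105 to 593 per mouse), 4493 C1qa-low cells (0 or 1 UMI, 284 to 833 per mouse) and 1945 cells between. Macrophage genes that the cut did not use (C1qb, C1qc, Adgre1, Mrc1 and Trem2) summed to 8694 to 11722 counts per 1000000 UMIs (CPM, over the genes used) in C1qa-high cells and 532 to 781 in C1qa-low cells, while monocyte genes (Ly6c2, Vcan, Plac8, Chil3 and Ccr2) summed to 1570 to 4007 and 7630 to 11771. The monocyte sums differed by line. In C1qa-high cells they were 3263 to 4007 CPM in parental, 1570 to 2701 CPM in E0771-Res1 and 1781 to 2281 CPM in E0771-Res2. In C1qa-low cells they were 11284 to 11771, 8115 to 9831 and 7630 to 9815 CPM in the same order. The part of this difference in the comparisons of lines was not tested. Dendritic cell markers reached 334 CPM in C1qa-low cells, neutrophil markers 359 CPM, and tumor or stromal markers 36.2 CPM. Mice yielded 5036667 to 18894504 UMIs, with a median per kept cell of 7631 to 8160 in parental and E0771-Res1 mice and 5589 to 7001 in E0771-Res2 mice. E0771-Res1 replicate 2 stood apart from the other 7 mice in the genes described here, so the main comparisons that rest on it, but not all results, are also given without it.

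The letters of the antioxidant response element were looked for in the promoters, because the NRF2 and small MAF pair binds them. RefSeq windows (GRCm38.p6) from 250 bases before to 50 bases after a transcription start were present in the table used for 7 of the 10 genes (not Gclc, Hmox1 and Gsr), 9 windows in all. The core TGACNNNGC, read on both strands, occurred in 5 of these windows, 1 in each of 5 genes, and in 12.4% of all 32851 windows. A match is only a match of letters. The 29 bases around each are shown 5' to 3' on the strand that carries the core, with the core in capitals, for each of the 5 genes with a match:
Gclm: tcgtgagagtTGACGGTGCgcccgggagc
Prdx1: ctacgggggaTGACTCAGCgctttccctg
Txnrd1: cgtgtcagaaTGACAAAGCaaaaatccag
Srxn1: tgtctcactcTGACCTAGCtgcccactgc
Nfe2l2: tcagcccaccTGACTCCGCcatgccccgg
The Gclm core lay 126 bases upstream of the start (chr3:122245413-122245441) and the Prdx1 core 125 bases upstream (chr4:116685456-116685484), both on the strand opposite to the gene. The Prdx1 core also holds the letters TGACTCA, which AP-1 factors bind. The Txnrd1 core lay 84 bases upstream of 1 of its 3 starts (chr10:82859104-82859132) and the Srxn1 core 28 bases downstream of the start (chr2:152105542-152105570), again on the opposite strand. The Nfe2l2 core lay 232 bases upstream on the gene's own strand (chr2:75704885-75704913).

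Gclm and Gclc encode the modifier and catalytic subunits of glutamate-cysteine ligase, the rate-limiting enzyme of glutathione synthesis. Gclm (chr3:122245557-122270732, gene coordinates are in GRCm38) stood in C1qa-high cells at 19.1 and 35.7 CPM in the parental mice, at 48.4, 119.8 and 35.6 CPM in E0771-Res1 replicates 1, 2 and 3, and at 25.6, 39.8 and 23.6 CPM in E0771-Res2. In C1qa-low cells it stood at 29.1 and 19.6 CPM in parental, 56.1, 136 and 29.0 CPM in E0771-Res1, and 27.5, 34.3 and 19.8 CPM in E0771-Res2. E0771-Res1 replicate 2 was far above all others in both classes, and the remaining mice of the 3 lines overlapped. Gclc (chr9:77754535-77794485) stood in C1qa-high cells at 7.54 and 6.49 CPM in parental, 12.8, 13.5 and 18.4 CPM in E0771-Res1, and 13.7, 13.8 and 12.0 CPM in E0771-Res2, from as few as 6 UMIs in a mouse. In C1qa-low cells Gclc ranged from 9.40 to 17.1 CPM. Gclc was lowest in the parental mice in C1qa-high cells and did not single out any mouse.

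Slc7a11 (chr3:49892526-50443614) encodes the cystine importer that feeds glutathione synthesis, and Gsr (chr8:33652523-33698163) the reductase that regenerates glutathione. In C1qa-low cells Slc7a11 stood at 120.0 and 102 CPM in parental, 211, 291 and 166 CPM in E0771-Res1, and 116, 188 and 203 CPM in E0771-Res2. Its C1qa-high levels were lower, at 35.7 and 45.4, 66.6, 112 and 59.5, and 36.1, 80.6 and 44.9 CPM in the same order. All 3 E0771-Res1 mice lay above both parental mice in each class, and E0771-Res2 spanned both groups. Gsr stood at 278 and 332, 203, 341 and 251.5, and 220.5, 314 and 215 CPM in C1qa-low cells, and between 39.5 and 79.5 CPM in C1qa-high cells. The lines overlapped for Gsr in both classes.

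Hmox1 (chr8:75093621-75100589) encodes heme oxygenase 1, which cleaves heme into biliverdin, carbon monoxide and iron. In C1qa-high cells it stood at 215 and 354 CPM in parental, 451, 1036 and 321 CPM in E0771-Res1, and 258, 785 and 358 CPM in E0771-Res2. In C1qa-low cells the levels were 317 and 176, 462, 1807 and 332, and 321, 381 and 340.3 CPM. E0771-Res2 replicate 2 came closest to E0771-Res1 replicate 2 in C1qa-high cells, but not in C1qa-low cells, where the latter exceeded every other mouse by at least 3.91-fold.

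Prdx1 (chr4:116685544-116700822) encodes a peroxiredoxin that reduces hydrogen peroxide, Srxn1 (chr2:152105516-152111376) the sulfiredoxin that repairs overoxidized peroxiredoxins, and Txnrd1 (chr10:82833951-82897712) the cytosolic thioredoxin reductase. Prdx1 stood in C1qa-high cells at 982 and 1218 CPM in parental, 1463, 2373 and 1303 CPM in E0771-Res1, and 1206, 1265 and 1003 CPM in E0771-Res2. In C1qa-low cells its levels were 1143 and 1134, 1438, 2691 and 1009.7, and 1307, 1151 and 1008 CPM. Outside E0771-Res1 replicate 2 the Prdx1 levels of all mice lay within 982 to 1463 CPM. Srxn1, at 12.4 to 44.5 CPM over both classes, was highest in the same mouse, at 34.2 CPM in C1qa-high and 44.5 CPM in C1qa-low cells. Txnrd1 stood in C1qa-low cells at 142.5 and 142.5 CPM in parental, 143, 189 and 167 CPM in E0771-Res1, and 113, 112 and 96.0 CPM in E0771-Res2. All E0771-Res2 mice thus lay below the other 5 mice for Txnrd1 in this class, whereas in C1qa-high cells (80.2 to 183 CPM) E0771-Res2 and parental mice overlapped.

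Nqo1 (chr8:107388225-107403206), a quinone reductase often used as an NRF2 reporter, was at the limit of detection. It gave 6 UMIs in all C1qa-high cells, 11 in all C1qa-low cells, 12 in the cells between and 0 in lymphoid cells, which did not pass the filter on low counts, so 9 of the 10 genes were tested. In lymphoid cells a count of 0 allowed up to 3 UMIs in a mouse, or 3.07 to 12.0 CPM depending on depth, which covers counting error only. Nfe2l2 itself (chr2:75675513-75704641) was even across mice, from 253 to 348 CPM in C1qa-high and from 276 to 386 CPM in C1qa-low cells. Nfe2l2 in E0771-Res1 replicate 2, at 333 and 359 CPM, was inside the range of the other mice.

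**Figure D1:**
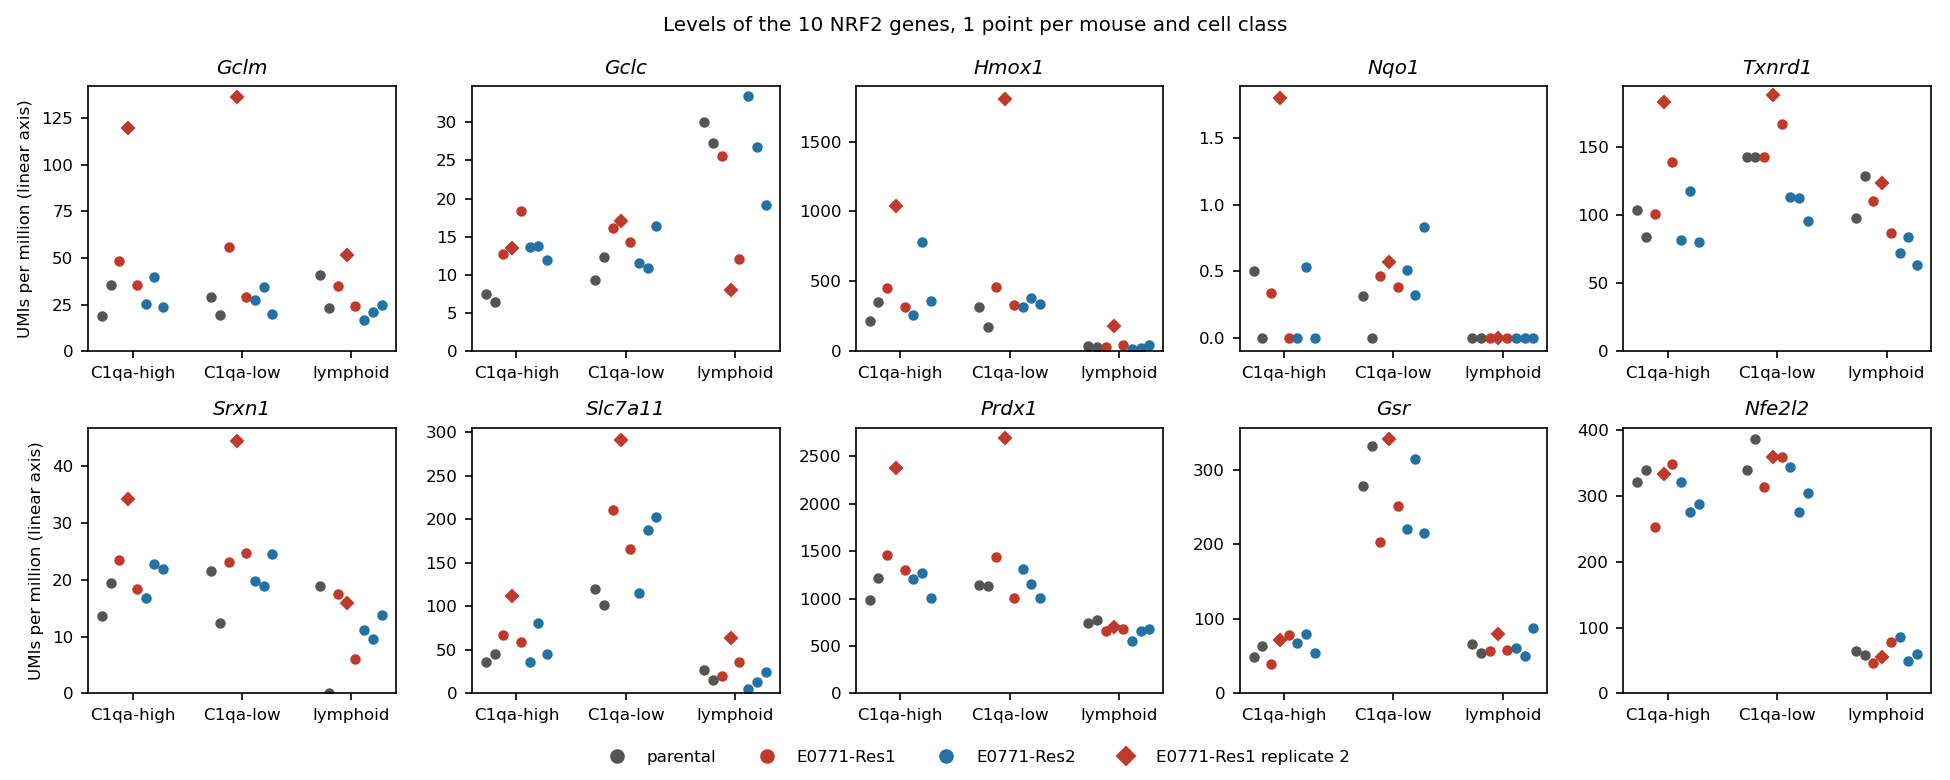
CPM (vertical axis, 1 panel per gene) of the 10 NRF2 antioxidant genes in C1qa-high myeloid, C1qa-low myeloid and lymphoid cells, 1 point per mouse, colored by tumor line, with E0771-Res1 replicate 2 drawn as a diamond. The diamond is the highest point in both myeloid classes for 6 genes, among them Gclm at 119.8 and 136 CPM, and lies among the other mice for Nfe2l2.

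E0771-Res1 replicate 2 was the highest of the 8 mice in both myeloid classes for 6 of the 9 tested genes (Gclm, Hmox1, Prdx1, Slc7a11, Srxn1 and Txnrd1). Over all 9042 genes tested in both classes, 2.92% were highest in that mouse in both, and none of the 9 was highest in both classes in any other mouse. The mouse was singled out on the values of these same genes. This count and those that follow therefore describe 1 animal and test nothing. Gclm exceeded the next highest mouse 2.48-fold in C1qa-high and 2.43-fold in C1qa-low cells, and Prdx1 1.62- and 1.87-fold. These were 2 of the 8 genes (0.0885% of those tested) at least 1.5 times every other mouse in both classes. The other 6, named after their values were seen, were Slc40a1 (ferroportin, the cellular iron exporter), Slc48a1 (a lysosomal heme exporter), Ptgr1 and Hpgd (prostaglandin-metabolizing reductase and dehydrogenase), Cbr2 (a carbonyl reductase) and Creg1 (a secreted glycoprotein). Hmox1 exceeded the next mouse 1.32-fold in C1qa-high and 3.91-fold in C1qa-low cells, whereas Slc7a11, Srxn1 and Txnrd1 exceeded it by 1.13- to 1.80-fold. Gsr, Gclc and Nfe2l2 stood at 0.73 to 1.04 times the highest other mouse.

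Neighboring pathways were read in the same mouse from lists of genes. Of 14 other NRF2-linked genes tested, 6 were highest there in both classes: Gstm1, a glutathione transferase, Abcc1, an exporter of glutathione conjugates, and G6pdx, Pgd, Taldo1 and Tkt, enzymes of the pentose phosphate pathway. The margins over the next mouse were small, from 1.01-fold (G6pdx, C1qa-low) to 1.41-fold (Abcc1, C1qa-high). Tkt exceeded it by 1.03- and 1.04-fold, and 0 of the 14 reached 1.5-fold in both classes. Of 11 heme and iron genes, 6 were highest, including Fth1 and Ftl1 (ferritin chains), Blvrb (a biliverdin reductase) and Spic (a factor of heme-induced macrophage development). Slc40a1 stood at 99.1 CPM in C1qa-high cells of that mouse against at most 26.5 CPM in any other, and Slc48a1 at 154 against at most 69.4 CPM. None of the 10 NRF2 regulators and partners, 14 other peroxide and superoxide enzymes, 11 ATF4 targets or 12 genes of the response to tissue dissociation was highest there in both classes. The heme and iron genes together reached 59532 CPM in C1qa-high cells, against 40018 to 47470 CPM in the other mice. Most of this sum was Fth1 (39571 CPM) and Ftl1 (18651 CPM), at 1.21 and 1.35 times the highest other mouse. Tfrc, Blvra, Alas1 and Flvcr1 lay below the highest other mouse in both classes.

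That mouse's classes held 109 C1qa-high and 284 C1qa-low cells. Its erythroid markers summed to 3.60 CPM in C1qa-high and 0.57 CPM in C1qa-low cells (1.08 to 148 and 0.57 to 7.54 over the 8 mice), and its tumor or stromal markers to 11.7 and 6.84 CPM (7.98 to 20.5 and 6.58 to 36.2). Its dissociation genes summed to 7621 CPM in both classes, the lowest value among the 8 mice in C1qa-low cells. Its dendritic cell markers, at 78.1 CPM in C1qa-low cells, were also the lowest there. The part of cell composition in the high levels of this mouse was not tested beyond 4 alternatives added after its values were seen: the count stayed at 6 with all deposited cells, without dendritic cells and without the 5% deepest cells, and was 5 (without Slc7a11) when C1qa was cut in cells thinned to equal depth.

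**Figure D2:**
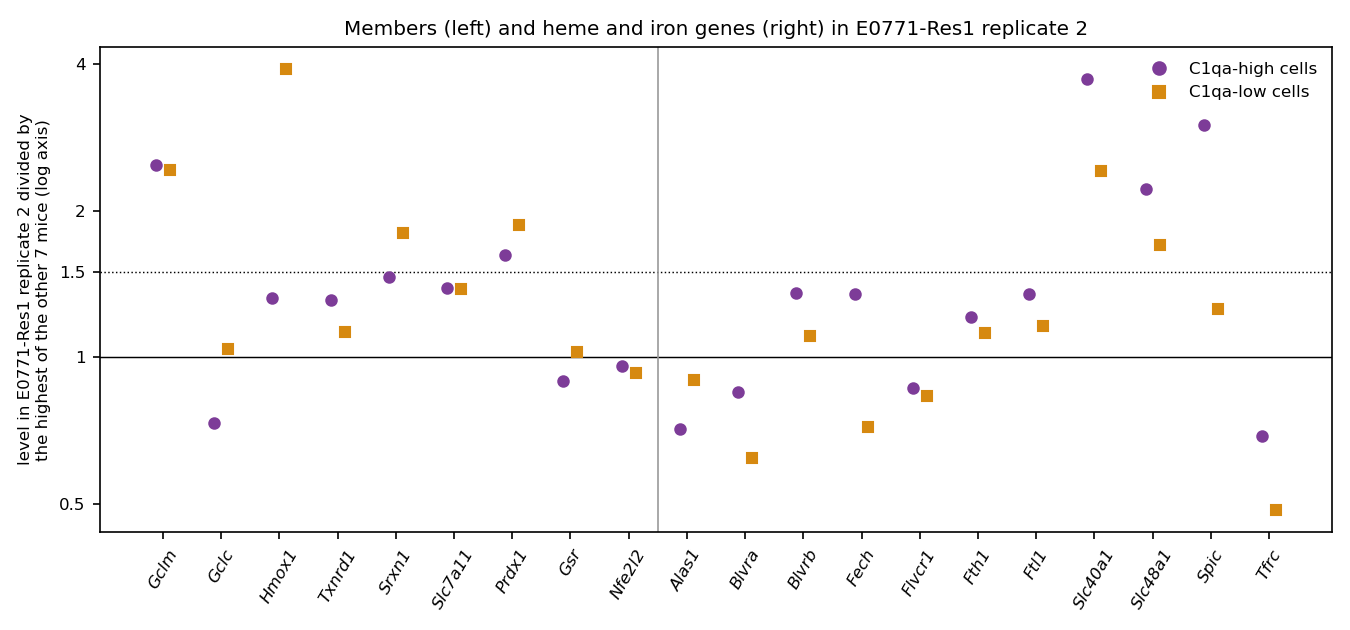
Level in E0771-Res1 replicate 2 divided by the highest level of the other 7 mice (vertical log axis, ratio), in C1qa-high and C1qa-low myeloid cells, for the 9 NRF2 antioxidant genes tested and 11 heme and iron genes. The dotted line marks 1.5; Gclm (2.48 and 2.43), Prdx1, Slc40a1 (3.74 and 2.41) and Slc48a1 (2.22 and 1.70) lie above it in both classes, and Nfe2l2 lies below 1 in both.

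The tumor lines were compared over mice with edgeR's quasi-likelihood test on counts summed per mouse, and p-values were adjusted by Benjamini-Hochberg across every gene that passed the filter on low counts. They measure the spread between mice of a line. Both comparisons with parental tumors share the same 2 parental mice. For E0771-Res1 against parental, 0 of the 9 genes passed an adjusted p of 0.05 in C1qa-high cells (0.315% of all genes did) and 0 of 9 in C1qa-low cells (0.0413% of all genes), and DESeq2 called 0 in either. At an unadjusted p under 0.05, 5 and 6 of the 9 passed. The share of all genes at this unadjusted cut was not counted, here or in the comparisons below, so these numbers have no background. They were also not counted without E0771-Res1 replicate 2. Without the filter on low counts edgeR called 5 and 4 of them, all higher in E0771-Res1, and 392 and 195 of all genes. The number of genes tested in that fit is not given here, and it was not run without E0771-Res1 replicate 2. The log2 fold changes ranged from -0.12 to 1.28 in C1qa-high cells, with a median of 0.61, and from -0.21 to 1.81 in C1qa-low cells, with a median of 0.59, against a median of all genes of 0.00 in each class. Without E0771-Res1 replicate 2 these medians were 0.46 and 0.41, the counts called were 0 and 0, and Hmox1 in C1qa-low cells had a log2 fold change of 0.66 in place of 1.81.

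Levels by line showed the same spread. Gclm in C1qa-low cells averaged 24.4 ± 6.72 CPM (SD, n = 2) in parental, 73.8 ± 55.8 CPM (n = 3) in E0771-Res1 and 27.2 ± 7.24 CPM (n = 3) in E0771-Res2. Hmox1 averaged 246 ± 100.2, 867 ± 817 and 347 ± 30.7 CPM in the same cells. In both genes the SD of E0771-Res1 was large relative to its mean, with replicate 2 the highest mouse. Without replicate 2 the E0771-Res1 means were 42.5 ± 19.1 CPM (SD, n = 2) for Gclm and 397 ± 92.3 CPM for Hmox1. Slc7a11 averaged 111 ± 12.9, 223 ± 63.2 and 169 ± 46.6 CPM in the 3 lines, and 188 ± 31.8 CPM in E0771-Res1 without replicate 2.

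Overlap between the lines was read without a model. All 3 E0771-Res1 mice lay above both parental mice for 3 of the 9 genes in C1qa-high cells (Slc7a11, Prdx1 and Gclc), where 14.5% of all genes did so, and for 5 of 9 in C1qa-low cells (Srxn1, Slc7a11, Hmox1, Gclc and Txnrd1), where 11.0% did. For Txnrd1 the gap was from 142.5 to 143 CPM. In the cells between, 4 of 9 did so (Gclm, Gclc, Hmox1 and Prdx1; 11.5% of all genes). All E0771-Res2 mice lay above both parental mice for 1 gene in C1qa-high cells (Gclc; 18.4% of all genes), 1 in C1qa-low cells (Hmox1; 20.9%) and 0 in the cells between (21.1%), where all 9 overlapped or lay lower. For E0771-Res2, counts of 1, 1 and 0 among 9 genes are too small to be set apart from the shares of all genes. Every E0771-Res2 mouse lay below both parental mice for Nfe2l2 in C1qa-high cells, at most 320.8 against at least 321.2 CPM. The same held for Txnrd1 in C1qa-low cells (113 against 142.5 CPM). In the cells between it held for Txnrd1 (117 against 140 CPM) and Gsr (180 against 192 CPM). The share of all genes lower in this way was not counted, so these cases have no background.

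For E0771-Res2 against parental, 0 of 9 genes were called by edgeR or DESeq2 in C1qa-high cells (2.05% of all genes called by edgeR; 1 of the 9 at an unadjusted p under 0.05) and 0 of 9 in C1qa-low cells (4.18% of all genes; 2 of the 9 unadjusted). The median log2 fold changes were 0.27 and 0.09. Txnrd1 in C1qa-low cells had a log2 fold change of -0.43 (SE 0.13, edgeR adjusted p = 0.0872). Without E0771-Res1 replicate 2, a mouse of neither group, it was called at -0.43 (SE 0.12, edgeR adjusted p = 0.0431). For E0771-Res2 against E0771-Res1, edgeR and DESeq2 called 0 of 9 in C1qa-high cells (3.43% of all genes called by edgeR, and 3 of the 9 unadjusted). Each called 1 of 9 in C1qa-low cells (3.65% of all genes called by edgeR, and 4 of the 9 unadjusted). Txnrd1 was the gene called, lower in E0771-Res2 with a log2 fold change of -0.64 (SE 0.12, adjusted p = 0.00772). It was -0.54 without E0771-Res1 replicate 2 (adjusted p = 0.0166) and -0.57 without E0771-Res2 replicate 3, where the call was lost (adjusted p = 0.0598). The dissociation genes, which are induced by heat and enzyme digestion, summed to 7621 to 9787 CPM in C1qa-low cells of E0771-Res1 and 9482 to 12406 CPM in those of E0771-Res2, and the median UMIs per kept cell were lower in E0771-Res2, but their part in the Txnrd1 difference was not tested. All 9 fitted changes were below 0 in that comparison, with a median of -0.49, and 8 of 9 were below 0 without E0771-Res1 replicate 2, with a median of -0.18.

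Whether the differences between lines depended on the myeloid class was tested as an interaction. edgeR called 0 of 9 genes (0.368% of all genes were called) and DESeq2 0. Gsr alone had an unadjusted p under 0.05 (adjusted p = 0.371).

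The 2 myeloid classes were compared within each mouse, as a description, since C1qa cut them. Gsr was lower in C1qa-high cells in 8 of 8 mice, by a mean log2 difference of -2.23 ± 0.32 (SD, n = 8), and Slc7a11 by -1.69 ± 0.31. Txnrd1 (-0.47 ± 0.25) and Nfe2l2 (-0.25 ± 0.09) were lower in all 8 mice by less. These 4 of 9 genes compare with 19.6% of all genes lower in all 8 mice, and 0 of 9 with 14.8% higher in all 8. Gclc (-0.29 ± 0.43), Srxn1 (-0.24 ± 0.42), Prdx1 (-0.12 ± 0.20), Hmox1 (-0.09 ± 0.68) and Gclm (-0.07 ± 0.44) differed in sign between mice. Thus Gclm and Gsr, which act in the same glutathione cycle, did not share a class difference: Gclm was higher in C1qa-high cells in 4 mice and lower in 4.

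**Figure D3:**
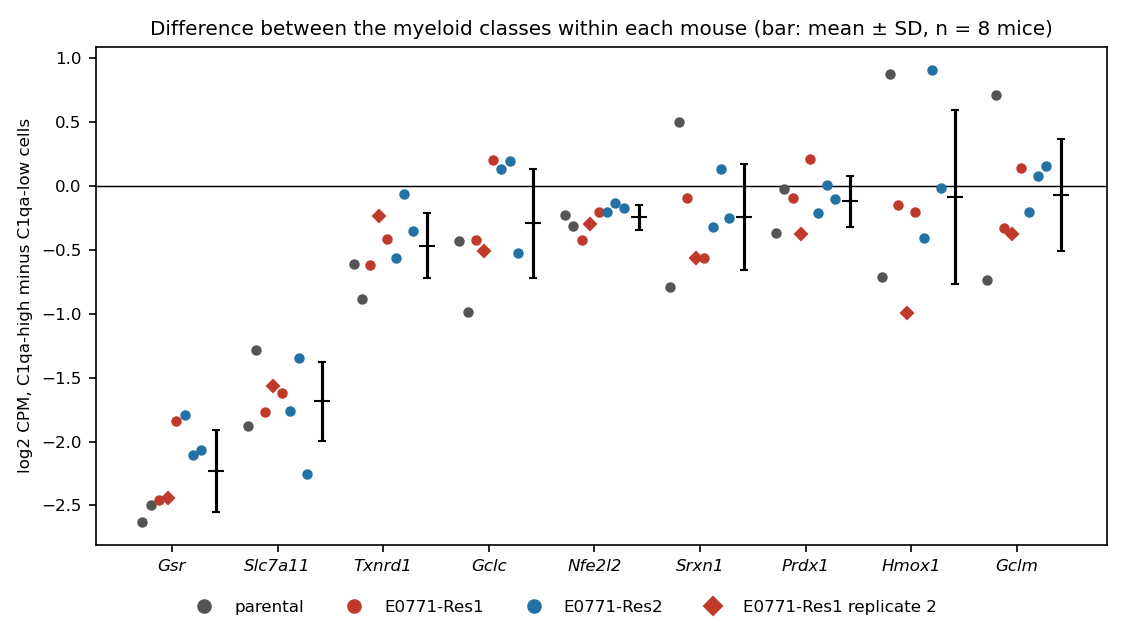
Log2 CPM in C1qa-high minus C1qa-low myeloid cells of the same mouse (vertical axis) for the 9 tested genes, 1 point per mouse, with the mean and SD of 8 mice. Gsr and Slc7a11 lie below 0 in all 8 mice, at means of -2.23 and -1.69, while Gclm scatters around 0.

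Spread over cells was read after thinning each cell to 2500 UMIs, which 2362 of the C1qa-high and 3963 of the C1qa-low cells reached. Prdx1 gave a UMI in 76.3% to 89.9% of C1qa-high cells and 75.6% to 86.7% of C1qa-low cells, and Nfe2l2 in 40.6% to 51.1% and 40.9% to 49.4%. Hmox1 gave one in 21.2% to 39.4% and 20.1% to 39.0%, although single cells held up to 36 and 59 of its 2500 UMIs. Hmox1 was thus concentrated: the 5% of cells with most held 45.2% to 81.5% of its UMIs in C1qa-high and 51.7% to 79.1% in C1qa-low cells, against 20.6% to 24.5% and 22.9% to 29.4% for Nfe2l2. Gsr gave a UMI in 5.26% to 12.8% of C1qa-high and 24.7% to 37.5% of C1qa-low cells, with no overlap between the classes. Gclm gave one in 3.18% to 11.9% and 2.47% to 12.4%, and both highest shares were those of E0771-Res1 replicate 2.

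Cells with a Gclm UMI also held more Hmox1 and Prdx1. Among C1qa-low cells, 12 to 31 per mouse had a Gclm UMI after thinning. Their mean Hmox1 was 5.32 UMIs per cell in the median mouse (0.385 to 18), against 0.481 (0.344 to 1.60) in cells without one, and it was higher in 8 of 8 mice. Prdx1 stood at 7.89 UMIs (4.31 to 24.2) against 2.02 (1.95 to 2.70), also higher in 8 of 8. The gap was wide for Hmox1 in most mice but small in parental replicate 3, at 0.385 against 0.344 UMIs. Txnrd1 was higher in 8 of 8 mice (medians 0.892 and 0.253), Slc7a11 and Srxn1 in 7 of 8, Gclc and Gsr in 6 of 8, and Nfe2l2 in 4 of 8. In C1qa-high cells 6 mice had at least 10 such cells, all of E0771-Res1 or E0771-Res2. The parental mice had 8 and 7 and were left out. Hmox1 (2.93 against 0.569), Prdx1 (4.77 against 2.23) and Srxn1 were higher in 6 of the 6 mice used. Txnrd1 was higher in 4 of 6, Slc7a11 and Nfe2l2 in 3 of 6, Gclc in 2 of 6 and Gsr in 1 of 6.

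Over all genes compared by unthinned CPM, 2.12% were higher in C1qa-high and 0.868% in C1qa-low cells with a Gclm UMI in every mouse used, which for C1qa-high cells included no parental mouse. Of the 6 other NRF2 antioxidant genes among the genes compared, 3 were so in C1qa-high cells (Hmox1, Prdx1 and Txnrd1) and 4 in C1qa-low cells (these and Slc7a11). In thinned cells Txnrd1 was higher in only 4 of 6 mice in C1qa-high cells, and Slc7a11 in 7 of 8 in C1qa-low cells. Before thinning, the C1qa-low cells with a Gclm UMI had a median depth of 6539 to 9344 UMIs and those without one 5651 to 8063 UMIs. In C1qa-high cells these depths were 7974 to 14110 and 7023.5 to 11469.5 UMIs. In E0771-Res1 replicate 2 the cells without a Gclm UMI were high too, at 1.46 Hmox1 UMIs per C1qa-high and 1.60 per C1qa-low cell, against 0.344 to 0.962 in the other mice. At this depth a cell without a Gclm UMI may still express it.

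**Figure D4:**
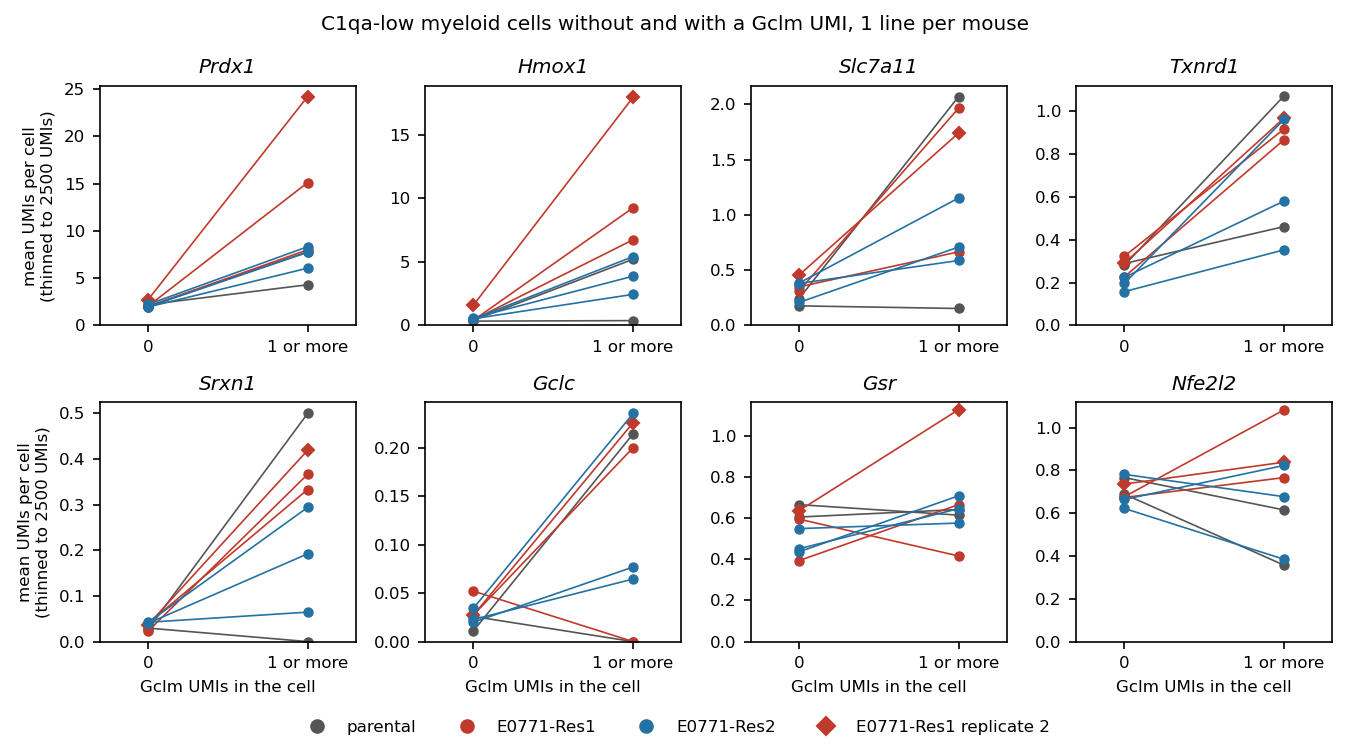
Mean UMIs per cell, after thinning to 2500 UMIs, of 8 NRF2 antioxidant genes in C1qa-low myeloid cells with 0 and with at least 1 Gclm UMI, 1 line per mouse, colored by tumor line. Hmox1 and Prdx1 are higher in cells with a Gclm UMI in all 8 mice, Slc7a11 in 7 of 8, and Nfe2l2 in 4 of 8.

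The genes whose levels followed Gclm most closely over the 16 values of 8 mice and 2 classes, each class centered on its mean, were Prdx1 (Pearson r = 0.953), Hmox1 (0.909), Cyb5a (cytochrome b5, 0.900), Slc48a1 (0.882) and Tmem208 (an endoplasmic reticulum membrane protein, 0.873), of 3917 genes ranked. Slc7a11 came 15th in that order (0.823). The points share mice, depth and, above all, E0771-Res1 replicate 2. For the 14 points without it, the classes stayed centered on their means over all 8 mice. Over these points r was 0.811 for Prdx1, 0.708 for Hmox1, 0.670 for Cyb5a, 0.503 for Slc48a1 and 0.590 for Tmem208. Prdx1 then ranked 5 and Hmox1 34. The genes that led without that mouse were Fbl (0.849), Smc3 (0.834), Atpif1 (0.823) and Eef1d (0.812). For Nfe2l2 transcripts r was 0.06 over 16 points and -0.40 over 14.

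Lymphoid cells (42 to 147 per mouse) served as a further class and as a rough reading of free RNA. The study pooled tagged cells of the 3 lines for processing, so free RNA of several mice could mix. A percentage of a mouse's own myeloid level therefore does not measure free RNA in that mouse. Hmox1 in lymphoid cells stood at 5.22% to 15.1% of its myeloid level, with a median mouse of 12.3%. Beside it, the macrophage genes that lymphoid cells should lack stood at 5.21% to 14.5%. Within mice, Hmox1 lay above the macrophage genes in 5 of 8 and above the monocyte genes in 0 of 8. How much of its lymphoid counts was free RNA was not tested. The monocyte genes stood higher, at 20.6% to 44.0%. A UMI of C1qa was found in 43.5% to 59.7% of lymphoid cells and one of Hmox1 in 10.0% to 23.9%. Hmox1 in lymphoid cells was highest in E0771-Res1 replicate 2, at 184 CPM against 16.7 to 44.5 CPM. That was 12.2% of its myeloid level in this mouse, beside 7.30% for the macrophage genes. Nfe2l2 (15.6% to 25.5%) and Slc7a11 (6.30% to 29.7%) were also far below their myeloid levels. They lay above the macrophage genes in 8 and 7 of 8 mice, and above the monocyte genes in 0 and 1 of 8. Gsr (22.9% to 62.5%) lay above the macrophage genes in 8 of 8 and the monocyte genes in 5 of 8. Txnrd1 (53.7% to 102%) and Gclc lay above both the macrophage and the monocyte genes in 8 of 8 mice. Gclm (37.4% to 153%) and Prdx1 (26.9% to 68.5%) lay above the macrophage genes in 8 of 8 and above the monocyte genes in 7 and 6 of 8. Gclc, at 7.98 to 33.4 CPM, stood above its myeloid level in the median mouse (209%, 41.8% to 342%). Srxn1 ranged from 0 to 18.9 CPM, or 0% to 88.0%. These lymphoid levels rested on few UMIs per mouse: 2 to 25 for Gclc, 6 to 34 for Gclm and 0 to 17 for Srxn1. Hmox1 had 6 to 46 and Slc7a11 2 to 20. The highest Hmox1 level, that of E0771-Res1 replicate 2, came from 46 UMIs in 46 cells, of which 23.9% held one.

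The other genes of the pathway were called at shares near that of all genes over the 6 comparisons of lines, which was 2.29% of all gene and comparison pairs. The NRF2 antioxidant genes themselves had 1 call in 54 pairs (1.85%). Other NRF2-linked genes (15 of 21 tested) had 1 higher and 2 lower calls (3.33% of their pairs), with medians of -0.19 to 0.33 log2. Regulators and partners of NRF2 (10 of 12 tested) had 0 higher and 2 lower calls (3.33%), with medians of -0.15 to 0.05. Outside the naming rule and chosen after their values were seen, the genes behind these 5 calls were Cd36, a fatty acid and oxidized lipid receptor higher in E0771-Res2 than parental C1qa-high cells (1.85, adjusted p = 0.00296), Pgd and Abcc1, both lower in E0771-Res2 than E0771-Res1 (-0.46 in C1qa-high, adjusted p = 0.0387, and -0.79 in C1qa-low, adjusted p = 0.0109), Cul3, the ligase scaffold of KEAP1, lower in E0771-Res2 than parental C1qa-low cells (-0.53, adjusted p = 0.0183), and Maff, a small MAF partner, lower in E0771-Res2 than E0771-Res1 C1qa-low cells (-1.08, adjusted p = 0.0167). Pgd and Abcc1 were among the genes highest in E0771-Res1 replicate 2, and their calls are not given without that mouse.

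Other peroxide and superoxide enzymes (14 or 15 of 16 tested) had 1 call (1.15% of pairs), Glrx, lower in E0771-Res2 than parental C1qa-low cells (-0.61, adjusted p = 0.0148). Heme and iron genes (11 of 12 tested) had 1 (1.52%), Blvra, higher in E0771-Res2 than E0771-Res1 C1qa-low cells (0.50, adjusted p = 0.0445). ATF4 targets (11 or 12 of 14 tested) had 2 higher calls (2.90%), both in E0771-Res2 against E0771-Res1 (Ddit4 in C1qa-high, 1.12, adjusted p = 0.0278, and Ddit3 in C1qa-low cells, 0.67, adjusted p = 0.0285). These 4 genes were likewise named after their values were seen. The 12 dissociation genes had 11 higher and 1 lower calls (16.7%), all in comparisons with E0771-Res2. Hspa1a, an inducible heat shock protein, was higher in E0771-Res2 than parental mice by 1.56 (adjusted p = 0.0387) in C1qa-high and 1.55 (adjusted p = 0.00117) in C1qa-low cells. In C1qa-low cells 3 more were higher in E0771-Res2 than in parental and in E0771-Res1 mice. They were Jun, an AP-1 subunit (1.09 and 0.79, adjusted p = 0.00701 and 0.0186), Hspb1, a small chaperone (1.97 and 1.40, adjusted p = 0.0275 and 0.0450), and Dusp1, a MAP kinase phosphatase (0.80 and 0.56, adjusted p = 0.00369 and 0.0137). Dusp1 was also higher in C1qa-high cells against E0771-Res1 (0.31, adjusted p = 0.0497). The medians of the dissociation list ranged from 0.05 to 0.77. For E0771-Res1 against parental in C1qa-low cells its median was 0.24, with 8 of 12 fitted changes above 0, beside 0.59 for the NRF2 antioxidant genes, and its part in their levels was not tested.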

How the data were processed

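The authors deposited filtered Cell Ranger count matrices (UMI counts per gene and cell, not normalized), 1 per mouse, made with Cell Ranger 6.1.2 per the file headers, with mm10 named in the submitters' processing notes. Libraries were multiplexed with CellPlex oligonucleotide tags, and the 9 tag features were not used for expression. Genes and lists were chosen with earlier results of these data known. Cells with 500 to 6000 detected genes and a mitochondrial share under 10% were kept, and 8636 genes (mt-, Rpl, Rps, Gm) were left out, as in the study's methods. A cell was myeloid with at least 0.5% of its UMIs in myeloid and under 0.1% in lymphoid markers, and lymphoid with at least 0.2% in lymphoid and under 0.5% in myeloid markers. No doublet caller was run; cells with both marker sets fell in neither class. UMIs were summed per mouse and class, because cells are not replicates, and each mouse held at least 10 cells of each class.

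Fits used edgeR 4.0.16 in R 4.3.3 (TMM, filterByExpr, glmQLFTest, two-sided) over all 8 mice with tumor line as the factor. DESeq2 1.42.0 was an alternative. Log2 CPM within mice used a prior count of 2. The procedure was tested on simulated data. Replicates differed beyond counting error (chi-square per degree of freedom 2.66 to 12.4 in 7 pairs). Class depth was 1128299 to 7409187 UMIs per mouse in C1qa-high, 2132790 to 5332447 in C1qa-low and 347458 to 1366998 in lymphoid cells. UMIs lie at the 3' end of transcripts, so levels were compared within a gene. Sums over lists and the spread over cells did set genes side by side. Coordinates are GRCm38 (GENCODE vM21 genes, all protein coding; RefSeq GRCm38.p6 promoters). All 10 genes were named; fold changes with SE and adjusted p were given where 1 of them passed an adjusted p of 0.05, list genes were named, with fold change and adjusted p, if called in at least 2 of 6 comparisons (others are said to be named after their values were seen), and the 5 genes most like Gclm were ranked among genes with a mean log2 CPM of at least 5 in both classes. Alternatives were DESeq2, its size factors, no filter on low counts, other cell filters and C1qa cuts, dendritic cells or the deepest cells left out, a replicate block, thinning to 1500 UMIs and each mouse left out.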

Additional observations from a re-analysis of the deposited data

Results flagged for a closer look

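Myeloid cells with 2 to 9 C1qa UMIs were not part of the tested comparisons. In them the lowest E0771-Res1 mouse lay above the highest parental mouse for 4 of the 9 genes: at 46.4 CPM for Gclm (parental at most 33.9), 15.5 CPM for Gclc (at most 12.3), 501 CPM for Hmox1 (at most 328) and 1399 CPM for Prdx1 (at most 1206). They drew notice because these cells were outside the tested classes and the parental mice served as controls; 11.5% of all genes met the same condition, and the difference was not tested. E0771-Res1 replicate 2 was again the highest mouse for each, at 173, 31.9, 1463 and 2793 CPM, but the condition rests on the lowest E0771-Res1 mouse.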

How the results depend on the processing

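No call of the report changed direction under any alternative run, and the 4 genes lower in C1qa-high cells in all 8 mice numbered 4 under each of theirs. The numbers of the 9 genes called moved most without the filter on low counts: 5, 1 and 5 in C1qa-high cells (E0771-Res1 against parental, E0771-Res2 against parental, E0771-Res2 against E0771-Res1), 4, 3 and 5 in C1qa-low cells and 1 for the interaction, in place of 0, 0, 0, 0, 0, 1 and 0, while all genes called rose to 392, 548, 652, 195, 784, 718 and 252; the cause was not tested. For E0771-Res2 against E0771-Res1, 1 gene (Gclm) was called in C1qa-high cells with the C1qa cut on thinned cells. In C1qa-low cells 2 (Gclm and Txnrd1) were called without dendritic cells or without the 5% deepest cells. The numbers of all genes called under these settings are not given here, so a general rise in calls cannot be told apart. The cause was not tested. Leaving out 1 mouse at a time gave 0 to 1 genes for E0771-Res1 against parental in C1qa-high cells (Prdx1, without E0771-Res1 replicate 3), 0 to 2 for E0771-Res2 against E0771-Res1 in C1qa-high cells (1 without E0771-Res1 replicate 1, 2 without E0771-Res1 replicate 3), 0 to 1 for E0771-Res2 against parental in C1qa-low cells (Txnrd1, without E0771-Res1 replicate 1 or 2) and 0 to 4 for E0771-Res2 against E0771-Res1 in C1qa-low cells (0 without E0771-Res2 replicate 3, 2 without E0771-Res1 replicate 1, 4 without E0771-Res1 replicate 3). The calls over all genes are given only as ranges over these runs, so a general rise in a named run cannot be told apart. They ranged from 2 to 265, 34 to 335 and 126 to 357 in C1qa-high cells, 0 to 25, 31 to 501 and 88 to 371 in C1qa-low cells, and 7 to 61 for the interaction, against 29, 189, 316, 4, 404, 353 and 37. For E0771-Res1 against parental they were 97 and 41 by DESeq2 and 60 and 9 without the 5% deepest cells, and 69 in C1qa-high cells without dendritic cells. DESeq2 made 200 calls for E0771-Res2 against E0771-Res1 in C1qa-high cells and 17 for the interaction. Thinning to 1500 UMIs lowered 13 shares of cells with a UMI by more than the spread between mice. DESeq2 or its size factors shifted the median of all genes by at most 0.02 log2. A gene at a few UMIs per class, such as Nqo1, could not be compared at this depth. Low depth and low expression were not told apart.

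The replicate numbers do not pair the mice: deviations of same-numbered mice correlated between -0.04 and 0.07 in C1qa-high and between -0.09 and 0.10 in C1qa-low cells, over 7 pairs each. With the number as a block, 4 of the 9 genes were called in E0771-Res2 against E0771-Res1 in C1qa-high cells and 2 in C1qa-low cells, and 2 in E0771-Res2 against parental in C1qa-low cells, with 63, 196, 342, 25, 502 and 424 calls over all genes in the order of comparisons above, in place of 29, 189, 316, 4, 404 and 353.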
